A study of Mus musculus with 35 samples.

Results

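Fatty acid oxidation and the targets of PPARA were followed here in mouse liver on the morning after a single exposure to styrene vapour. The module was a list of 39 genes, of which 34 were measured, out of 17097 genes with a probe set that named them alone. Members were taken by name from the list, which was drawn up with earlier results of these data known. Each gene was read from 1 probe set, a group of short probes against 1 transcript, taken as the brightest over all arrays among those naming only that gene. The list held 17 mitochondrial genes with 14 measured, 10 peroxisomal genes all measured, 3 genes of proteins found in the peroxisome and in another place (Crat, Eci2 and Slc27a2), and 9 other PPARA targets with 7 measured. Hadha, Bdh1, Cidec, Acsl1 and Etfb were not analysed here, the last because its probe set also named another gene.

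The animals were 35 adult male wild-type C57Bl/6 mice, an inbred laboratory strain, in 7 groups of 5. The air group breathed no styrene, and the others breathed 1, 5, 10, 20, 40 or 120 ppm once, for 6 hours, each mouse in a cage of its own. All were killed the next morning with pentobarbital and bleeding, and all had been housed with free access to food, although the labels do not say whether food was present during the exposure. One array was made per mouse from whole liver, and values are on a log2 scale, so that a difference of 1 is a doubling. In pieces of whole tissue, fewer cells of a type and less RNA per cell cannot be told apart.

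Long fatty acids enter mitochondria as carnitine esters, made by Cpt1a, carried across the inner membrane by Slc25a20 and remade into CoA esters by Cpt2, and are then shortened by acyl-CoA dehydrogenases, hydratases, hydroxyacyl-CoA dehydrogenases and thiolases. Peroxisomes run a parallel chain of enzymes on very long and branched fatty acids, which enter through the Abcd carriers. PPARA is a nuclear receptor that binds fatty acids, pairs with RXR and switches on genes of both routes in hepatocytes, and its response element is a direct repeat of AGGTCA with a single base between the copies.

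Promoter windows of 250 bases before the transcript start, from RefSeq on GRCm38.p6, were at hand for 30 of the 39 members, in 34 windows. The 4 windows printed are those of a pair of mitochondrial genes that rose, Cpt1a and Acadm, and of a pair of genes that fell at the highest concentration, Fabp1 and Acaa1b. Capitals mark AGGTCA or, for the longer run in Fabp1, AGGNCANAGGNCA, on either strand (TGACCT is AGGTCA read from the other strand). The windows lie at chr19:3323051-3323300 (plus strand), chr3:153944644-153944893 (minus), chr6:71199629-71199878 (plus) and chr9:119157094-119157343 (minus), each ending at the base before the transcript start. The start used for Cpt1a lies inside the span annotated for the gene, and the other 3 lie at its edge.
Cpt1a promoter: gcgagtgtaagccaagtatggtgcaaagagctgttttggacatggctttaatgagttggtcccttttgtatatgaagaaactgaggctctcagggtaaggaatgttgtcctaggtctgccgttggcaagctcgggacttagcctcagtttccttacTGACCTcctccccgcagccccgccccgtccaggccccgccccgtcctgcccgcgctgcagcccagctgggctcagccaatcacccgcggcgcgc
Acadm promoter: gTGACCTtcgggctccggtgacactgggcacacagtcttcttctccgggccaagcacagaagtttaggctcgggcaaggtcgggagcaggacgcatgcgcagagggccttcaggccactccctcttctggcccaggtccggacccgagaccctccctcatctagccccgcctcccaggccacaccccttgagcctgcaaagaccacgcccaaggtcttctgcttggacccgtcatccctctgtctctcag
Fabp1 promoter: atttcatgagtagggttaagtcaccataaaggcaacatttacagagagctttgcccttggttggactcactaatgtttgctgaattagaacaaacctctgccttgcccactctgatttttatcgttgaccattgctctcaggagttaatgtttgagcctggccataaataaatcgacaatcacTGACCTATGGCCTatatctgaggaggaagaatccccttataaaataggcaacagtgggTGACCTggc
Acaa1b promoter: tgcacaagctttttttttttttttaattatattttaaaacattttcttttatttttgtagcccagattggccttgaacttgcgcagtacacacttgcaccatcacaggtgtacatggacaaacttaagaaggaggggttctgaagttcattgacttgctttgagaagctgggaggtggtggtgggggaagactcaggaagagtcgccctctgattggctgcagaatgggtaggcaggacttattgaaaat

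AGGTCA was found in 6 of the 34 member windows, 17.6%, and in 14.02% of all 32851 windows. The members holding it were Acadm, Acadvl, Cpt1a, Fabp1, Plin2 and Slc27a2. The exact repeat AGGTCANAGGTCA was in 0 member windows and in 0.0335% of all windows. The looser repeat AGGNCANAGGNCA, which includes the exact one, was in 1 member window and in 0.338% of all windows. That window was Fabp1, where the run TGACCTATGGCCT begins 67 bases before the start. In Cpt1a the match begins 94 bases before the start. The windows of Ehhadh and Acaa1b held none of the 3 motifs. These matches describe letters in the windows, and elements farther from the start or inside introns were not examined.

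Arrays correlated pairwise at 0.965 to 0.995 over all probe sets. The hepatocyte marker list, 9 of 12 genes measured and headed by Alb and Ttr, had a mean level between 12.74 and 12.99 in every mouse, and 1 of its genes, Apob, was higher at 40 and 120 ppm (0.71 and 0.78). The mean levels of the neutrophil and skeletal muscle lists lay near the low end of the scale, with 1 of 9 neutrophil markers, Prtn3, higher at 120 ppm (1.43, limma adjusted p = 1.45e-07), and with the muscle markers Acta1 lower (-0.53) and Mb higher (0.29) there. At 120 ppm 1 of 8 stellate cell markers was lower, Col3a1 (-1.41), and 1 of 8 sinusoidal endothelial markers, Stab1 (-0.35). In these lists 2 stellate and 4 endothelial markers averaged above air there. At 40 ppm 1 stellate marker was lower and 1 endothelial marker higher. Of 11 Kupffer cell markers 3 were lower at 40 ppm and 5 at 120 ppm (median -0.36 and -0.45 on the log2 scale). The mean list level was 6.80 to 7.83 in air and 6.404 to 7.06 at 120 ppm. Only 1 of the 11, Cd163, averaged above air at 120 ppm (5.29 against 4.87). Of all genes 6.24% passed as lower at 40 ppm and 7.99% at 120 ppm. As higher, 8.74% and 11.2% did. Actin control probes at the 3' end read above those at the 5' end, a measure of RNA integrity and labelling. The mean gap was 0.478 in air mice, and 0.529, 0.525 and 0.581 at 1, 5 and 10 ppm. It was larger from 20 ppm, at 0.724, 0.706 and 0.717 in the 20, 40 and 120 ppm groups. The median of an array averaged 3.503 in air and 3.598 at 120 ppm. Animal numbers run upward with concentration, from 1 to 8 in air to 49 to 56 at 120 ppm, so order of handling and concentration cannot be told apart between groups. The part of these measures in the results was not tested. Within groups, 0 of 34 members followed the place of the animal number (limma, adjusted p under 0.05, against 3.11% of all genes), and the smallest adjusted p in limma's fit was that of Pex19 (adjusted p = 0.264).

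The first comparison asked at which concentration the module changed from air. At 1, 5 and 10 ppm 0 of 34 members passed the limma test. Of all genes 0% passed at 1 ppm, 0.0526% at 5 ppm and 0% at 10 ppm. An unadjusted p under 0.05 was reached by 1 member at 1 ppm, Crot, and by 0 at 5 and 10 ppm. At 20 ppm 6 members rose and 0 fell, where 1.46% of all genes passed, 0.497% as higher and 0.959% as lower. In 4 members, Slc25a20, Abcd2, Pex11a and Crat, every mouse at 20 ppm lay above every air mouse, in Pex11a by a margin too small to show at 2 decimals (1.19% of all genes). At 40 ppm 18 rose and 0 fell (15% of all genes passed, 8.74% as higher and 6.24% as lower). At 120 ppm 14 rose and 3 fell (19.2% of all genes, 11.2% higher and 7.99% lower), or 9 and 5 when each array was centred on its own median. The median change of the 34 members at 20, 40 and 120 ppm was 0.28, 0.36 and 0.29 on the log2 scale, beside 0.00, 0.02 and 0.04 for all genes. The concentrations share the same 5 air mice, so these comparisons are not independent of each other.

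The module was highest at 40 ppm more often than at the top concentration. The group mean was highest at 40 ppm for 22 of 34 members (64.7%, against 20.1% of all genes), at 20 ppm for 7, and at 120 ppm for 0 (26.3% of all genes). Of the 14 mitochondrial members 12 were highest at 40 ppm, and of the 10 peroxisomal members 5 were highest at 40 ppm and 4 at 20 ppm. Directly tested, 0 members differed between 120 and 40 ppm (limma, 6 at an unadjusted p under 0.05, all lower at 120 ppm; 0.0409% of all genes passed) and 0 between 40 and 20 ppm (2 at an unadjusted p under 0.05, Hadh and Abcd2, both higher at 40 ppm; 0.339% of all genes). Which of the 3 upper concentrations gave the largest response was therefore not resolved for any single member.

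**Figure D1:**
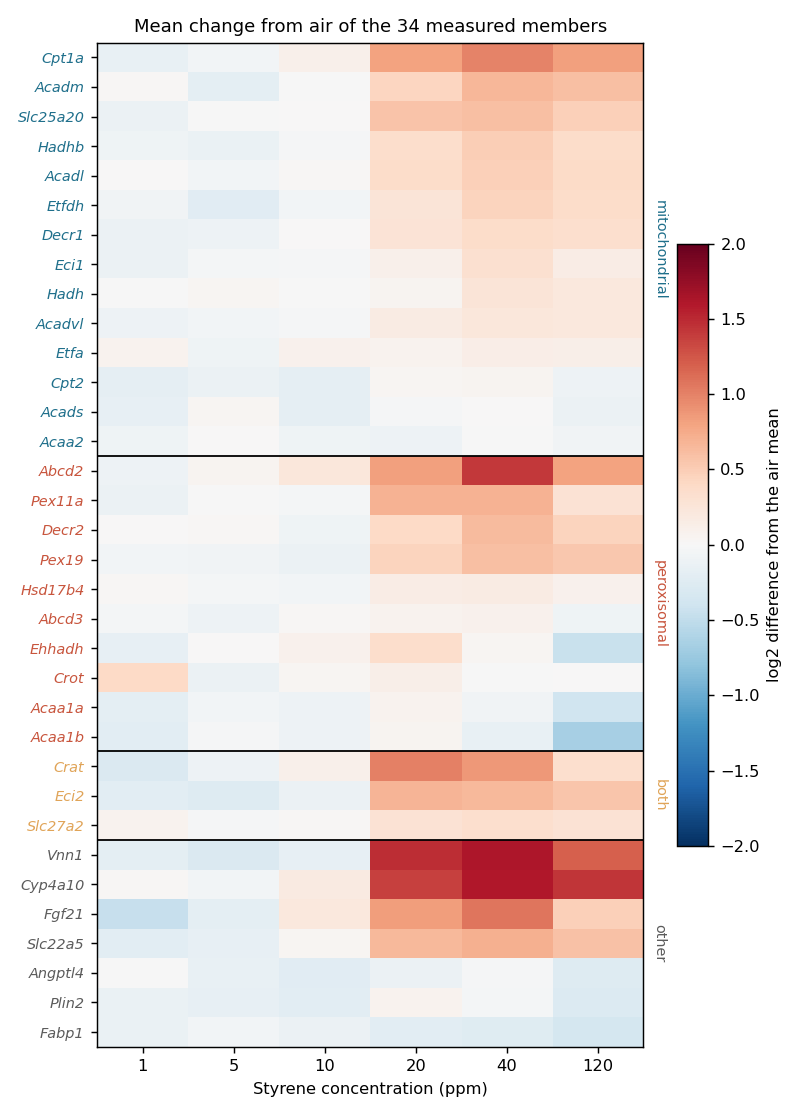
Mean difference from air of each measured member (rows, grouped as mitochondrial, peroxisomal, both places and other PPARA targets) at the 6 styrene concentrations (columns), in log2 units by colour, with 5 mice per group. The colours are mostly pale at 1, 5 and 10 ppm, where 0 members passed the test, although the lowest difference at 1 ppm was -0.46. Most members are red from 20 ppm. Within the 120 ppm column the deepest blue is in Ehhadh, Acaa1a, Acaa1b and Fabp1.

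The 2 mitochondrial members that passed at 20 ppm, Cpt1a and Slc25a20, both act in the entry of fatty acids. Cpt1a, the enzyme that makes acylcarnitines and sets the rate of entry, read 10.06, 10.48, 10.53, 10.47 and 10.64 in the 5 air mice. At 20 ppm it read 11.20, 11.54, 10.64, 11.45 and 11.35. The 40 ppm mice read 11.46, 11.38, 11.60, 11.34 and 11.37, and the 120 ppm mice 11.47, 11.31, 11.38, 11.07 and 11.06. Every mouse at 40 and 120 ppm lay above every air mouse, and at 20 ppm 4 mice did while replicate 3 lay within the air range. The rise was 0.80 ± 0.16 (SE) at 20 ppm, 0.99 ± 0.16 at 40 ppm and 0.82 ± 0.16 at 120 ppm, or 1.74-, 1.99- and 1.77-fold (limma adjusted p = 0.00991, 0.000101 and 0.000565).

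Slc25a20, the carnitine-acylcarnitine carrier of the inner membrane, read 10.46, 10.77, 10.78, 10.77 and 10.62 in air and 11.21, 11.54, 10.98, 11.47 and 11.03 at 20 ppm. It read 11.35, 11.23, 11.34, 11.28 and 11.25 at 40 ppm and 11.28, 11.25, 11.20, 11.13 and 10.90 at 120 ppm. None of these 3 groups overlapped with air. Its rise was 1.48-fold, 1.53-fold and 1.38-fold in that order (limma adjusted p = 0.0144, 0.000744 and 0.00523). Cpt2, which turns acylcarnitines back into acyl-CoA inside the mitochondrion, did not pass at any concentration, with a difference of 0.06 ± 0.10 at 40 ppm and -0.10 ± 0.10 at 120 ppm. Slc22a5, the carnitine importer of the plasma membrane and listed among the other targets, averaged 7.82 ± 0.32 (SD, n = 5) in air and rose to 8.53 ± 0.14 at 40 ppm, 1.64-fold (limma adjusted p = 0.0219, and 0.0748 without air replicate 1 or 0.0551 without 40 ppm replicate 3). At 120 ppm it averaged 8.40 ± 0.23 (adjusted p = 0.0510).

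Of the 4 acyl-CoA dehydrogenases, which take the first step of each turn of the mitochondrial spiral, 2 rose at 40 and 120 ppm. Acadm, which acts on medium chains, read 10.94, 11.14, 11.06, 11.35 and 11.26 in air, 11.87, 11.71, 11.82, 11.85 and 11.84 at 40 ppm, and 11.88, 11.77, 11.75, 11.72 and 11.63 at 120 ppm. The groups did not overlap with air, and the rise was 1.59-fold and 1.52-fold (limma adjusted p = 0.00498 and 0.00867). Acadl, which acts on long chains, rose 1.39-fold at 40 ppm and 1.31-fold at 120 ppm (adjusted p = 0.00188 and 0.00729), again with no overlap. Acads, for short chains, did not pass, with a difference of 0.00 ± 0.14 at 40 ppm, and neither did Acadvl, for very long chains, at 0.23 ± 0.08 (adjusted p = 0.0610). Whether these 4 genes differ from each other in response was not tested.

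Electrons from these dehydrogenases pass through the electron transfer flavoprotein to Etfdh. Etfdh averaged 9.87 ± 0.11 (SD, n = 5) in air and rose to 10.32 ± 0.05 at 40 ppm, 1.37-fold (limma adjusted p = 0.0246), and averaged 10.24 ± 0.09 at 120 ppm (adjusted p = 0.0520). Etfa, the alpha subunit of the flavoprotein, did not pass, at 0.14 ± 0.12 and 0.12 ± 0.12. Hadhb, the thiolase subunit of the trifunctional protein, rose 1.41-fold at 40 ppm and 1.29-fold at 120 ppm (adjusted p = 0.00112 and 0.0103). Hadh, the short-chain hydroxyacyl-CoA dehydrogenase, rose 1.20-fold and 1.16-fold (adjusted p = 0.0202 and 0.0490). Its rise at 120 ppm did not pass in 12 of 20 alternatives, among them a fit of only the groups compared (limma adjusted p = 0.102).

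Decr1, the reductase needed for fatty acids with double bonds, rose 1.30-fold at 40 ppm and 1.26-fold at 120 ppm (limma adjusted p = 0.0135 and 0.0223), although a second, dimmer probe set read 0.42 at 40 ppm and only 0.06 at 120 ppm. Eci1, the mitochondrial enoyl-CoA isomerase, did not pass at 40 ppm (0.32 ± 0.12, adjusted p = 0.0540), although it did in 10 of 20 alternatives. Acaa2, the mitochondrial thiolase, was among the brightest members at a mean of 12.3 and did not pass, with differences of -0.01 ± 0.06 at 40 ppm and -0.07 ± 0.06 at 120 ppm. Its other 2 probe sets were also between -0.08 and 0.03. In all, 2 of 14 mitochondrial members rose at 20 ppm, 8 at 40 ppm and 7 at 120 ppm, and 0 fell. Of all genes 0.497%, 8.74% and 11.2% passed as higher at these concentrations, and 0.959%, 6.24% and 7.99% as lower. At 40 ppm 8 of the 14 lay above air in every mouse and at 120 ppm 7 did (8.08% and 8.22% of all genes).

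**Figure D2:**
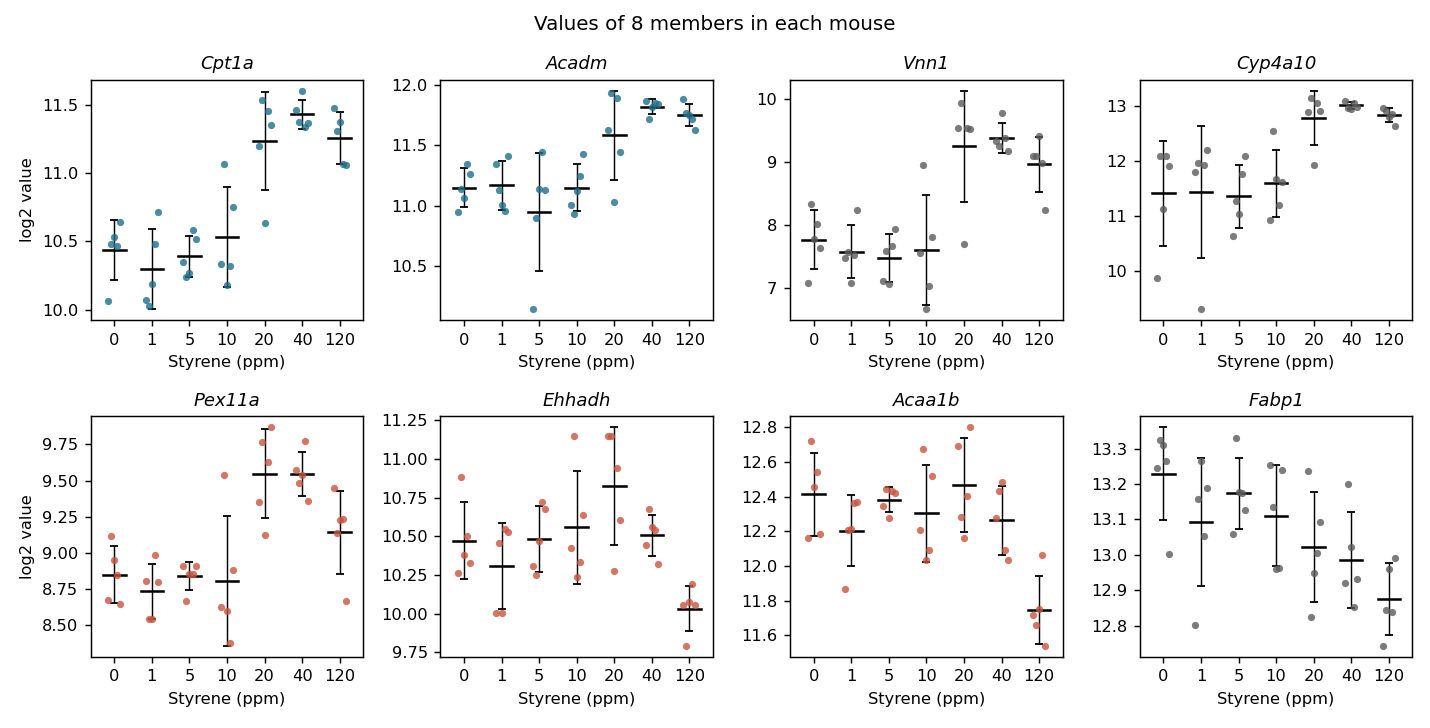
Values of 8 members in each mouse (points, log2) against styrene concentration in ppm, with group means (horizontal lines) and SD (bars), 5 mice per group. The group means of Cpt1a, Acadm, Vnn1 and Cyp4a10 at 20, 40 and 120 ppm all lie above the air mean, although Acadm and Cyp4a10 did not pass at 20 ppm, and all 5 mice at 120 ppm lie below all air mice in Ehhadh, Acaa1b and Fabp1.

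Peroxisomal members moved in both directions. Abcd2, a transporter of very long acyl-CoA into the peroxisome, was dim in air, at 2.74, 3.36, 3.04, 2.89 and 3.10. It read 3.78, 3.87, 3.43, 3.95 and 4.20 at 20 ppm. The 40 ppm mice read 4.45, 4.35, 4.50, 4.70 and 4.24, and the 120 ppm mice 4.08, 3.18, 4.59, 3.60 and 3.67. The 20 and 40 ppm mice all lay above air, and 1 mouse at 120 ppm did not. Its rise was 1.77-fold, 2.68-fold and 1.74-fold (limma adjusted p = 0.0231, 1.36e-05 and 0.00331), and 2 of its 3 other probe sets also rose at 40 and 120 ppm. Whether it lay above background in air was not tested, and its air level was under the median of an array, so these folds hold only between the measured values. Its close relative Abcd3, which carries similar cargo and is bright in liver, did not pass, at 0.08 ± 0.13 and -0.08 ± 0.13 at 40 and 120 ppm.

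Pex11a, which elongates and divides peroxisomes, read 8.67, 9.12, 8.95, 8.85 and 8.64 in air and 9.35, 9.77, 9.12, 9.63 and 9.87 at 20 ppm. The 40 ppm mice read 9.57, 9.48, 9.54, 9.78 and 9.36. The 120 ppm mice read 9.45, 9.14, 9.22, 9.23 and 8.67, which overlaps with air. It rose 1.63-fold at 20 ppm and 1.62-fold at 40 ppm (limma adjusted p = 0.0222 and 0.00340), while at 120 ppm the difference was 0.29 ± 0.16 (adjusted p = 0.191). Pex19, a chaperone for peroxisomal membrane proteins, rose 1.52-fold at 40 ppm and 1.45-fold at 120 ppm (adjusted p = 0.00311 and 0.00593). Decr2, the peroxisomal counterpart of Decr1, rose 1.55-fold and 1.36-fold (adjusted p = 0.00757 and 0.0497).

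The 2 peroxisomal thiolase genes fell at 120 ppm. Acaa1b, a peroxisomal thiolase, read 12.16, 12.72, 12.45, 12.54 and 12.18 in air and 12.69, 12.29, 12.16, 12.40 and 12.80 at 20 ppm. It read 12.28, 12.43, 12.49, 12.09 and 12.03 at 40 ppm and 11.72, 11.66, 11.75, 12.06 and 11.54 at 120 ppm. The 120 ppm mice were the low ones, all below air, while the 20 and 40 ppm groups overlapped with it. It fell by 0.67 ± 0.13 at 120 ppm, to 0.629 of the air level (limma adjusted p = 0.000908), and the difference at 40 ppm was -0.15 ± 0.13 (adjusted p = 0.484).

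Acaa1a, the other thiolase gene, fell by 0.39 ± 0.11 at 120 ppm (adjusted p = 0.0150), with 11.96, 12.03, 11.97, 12.10 and 11.74 against 12.18, 12.60, 12.43, 12.44 and 12.14 in air and no overlap. Its 4 probe sets disagreed. The second bright one read -0.40 (adjusted p = 0.0703), and 2 dim ones read 0.34 (adjusted p = 0.0158) and 0.25. Acaa1a and Acaa1b are closely related genes whose probes can read each other, so they may not be independent readings. The fall of Acaa1a did not pass without air replicate 2 (adjusted p = 0.0520) or as a mean over its probe sets (adjusted p = 0.781).

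Ehhadh, the peroxisomal bifunctional enzyme and a classical PPARA target, read 10.26, 10.89, 10.38, 10.50 and 10.33 in air and 11.15, 11.15, 10.27, 10.94 and 10.60 at 20 ppm. In the 40 ppm group it read 10.44, 10.67, 10.56, 10.54 and 10.32, and in the 120 ppm group 10.05, 9.79, 10.07, 10.19 and 10.06. The mice at 120 ppm lay below all mice in air and below all mice at 40 ppm. The difference from air at 20, 40 and 120 ppm was 0.35 ± 0.16, 0.04 ± 0.16 and -0.44 ± 0.16, and none passed (adjusted p = 0.359, 0.908 and 0.0521). Its value at 120 ppm passed as lower in 8 of 20 alternatives, with array centring (-0.53, adjusted p = 0.0231) among them. Hsd17b4, the other bifunctional enzyme, did not pass (0.16 ± 0.08 at 40 ppm), and neither did Crot, the peroxisomal carnitine octanoyltransferase, which was dim at a mean of 4.42 in air.

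Of the 10 peroxisomal members 2 rose at 20 ppm, 4 rose at 40 ppm, and 3 rose and 2 fell at 120 ppm. The shares of all genes that passed as higher were 0.497%, 8.74% and 11.2%, and as lower 0.959%, 6.24% and 7.99%. At 120 ppm 3 of the 10 lay below air in every mouse and 0 above it (6.14% and 8.22% of all genes). Between 120 and 40 ppm the 6 members with an unadjusted p under 0.05 were Abcd2 (-0.62), Acaa1b (-0.52), Ehhadh (-0.47), Pex11a (-0.40), Acaa1a (-0.33) and the lipid droplet gene Plin2 (-0.23), and none passed after adjustment (smallest adjusted p = 0.339). In Ehhadh and Acaa1a every mouse at 120 ppm lay below every mouse at 40 ppm (0.766% of all genes).

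The 3 genes of proteins shared between the peroxisome and another place all rose at 40 ppm. Crat, the carnitine acetyltransferase of mitochondria and peroxisomes, read 6.50, 6.67, 6.74, 6.37 and 5.75 in air and 7.43, 8.02, 6.77, 7.51 and 7.31 at 20 ppm. The 40 ppm mice read 7.30, 7.19, 6.99, 7.68 and 7.24, and those of the 120 ppm group 7.21, 6.93, 7.02, 6.77 and 5.78. All mice at 20 and 40 ppm lay above air. Its mean was 2.00-fold that of air at 20 ppm, which did not pass (adjusted p = 0.0533), it rose 1.83-fold at 40 ppm (adjusted p = 0.0234, and 0.0750 without air replicate 5 or 0.0633 without 40 ppm replicate 4), and it did not pass at 120 ppm (adjusted p = 0.381). A second, dimmer Crat probe set did not pass at 20, 40 or 120 ppm (0.46, 0.40 and 0.30, adjusted p = 0.144, 0.0729 and 0.160). Eci2, an enoyl-CoA isomerase of both organelles, rose 1.61-, 1.57- and 1.48-fold at 20, 40 and 120 ppm (limma adjusted p = 0.0247, 0.00543 and 0.0121). Slc27a2, the very long chain acyl-CoA synthetase of the endoplasmic reticulum and peroxisome, rose 1.27-fold at 40 ppm and 1.22-fold at 120 ppm from a bright mean of 12.62 ± 0.11 in air (adjusted p = 0.00396 and 0.0116).

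Among the 34 members the largest rises at 20, 40 and 120 ppm were those of Vnn1 and Cyp4a10, both PPARA targets outside these routes, of which Cyp4a10 did not pass at 20 ppm (1.37 ± 0.40, limma adjusted p = 0.0912). Vnn1, a pantetheinase that recycles the vitamin part of CoA, read 7.08, 8.33, 7.78, 8.01 and 7.64 in air and 9.54, 9.94, 7.70, 9.53 and 9.51 at 20 ppm. It read 9.33, 9.24, 9.78, 9.37 and 9.18 at 40 ppm and 9.09, 9.09, 9.40, 8.98 and 8.23 at 120 ppm. Replicate 3 at 20 ppm and replicate 5 at 120 ppm lay within the air range and all other mice of the 3 groups above it. Its rise was 2.77-, 3.05- and 2.28-fold (limma adjusted p = 0.0231, 0.00167 and 0.0128).

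Cyp4a10, which hydroxylates the far end of fatty acids, varied widely between air mice, at 9.86, 12.08, 11.13, 12.09 and 11.91. It read 12.89, 13.15, 11.93, 13.05 and 12.92 at 20 ppm. In the 40 ppm mice it was 13.09, 12.97, 12.96, 13.06 and 12.98, and in the 120 ppm mice 12.97, 12.92, 12.81, 12.85 and 12.64. The 40 and 120 ppm mice were all above air and lay close together, with an SD of 0.06 and 0.13 against 0.95 in air. The rise was 3.03-fold at 40 ppm and 2.68-fold at 120 ppm (limma adjusted p = 0.00723 and 0.0127), and without air replicate 1 the second did not pass (adjusted p = 0.0566). Its probes can read close relatives of the Cyp4a family.

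Fabp1, the fatty acid binding protein of the hepatocyte cytosol and the brightest member, read 13.25, 13.32, 13.31, 13.26 and 13.003 in air and 12.74, 12.85, 12.96, 12.84 and 12.99 at 120 ppm. Every mouse at 120 ppm was below every air mouse. It fell by 0.35 ± 0.09 (limma adjusted p = 0.00691), and its second probe set fell by 0.46 (adjusted p = 0.00380). Plin2, a coat protein of lipid droplets, and Angptl4, a secreted inhibitor of lipoprotein lipase, did not pass at any concentration, at -0.27 ± 0.11 and -0.25 ± 0.23 at 120 ppm. Fgf21, a hormone that the fasted liver secretes, was dim, and it averaged 3.30 in air and 4.36 at 40 ppm without passing (adjusted p = 0.112).

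**Figure D3:**
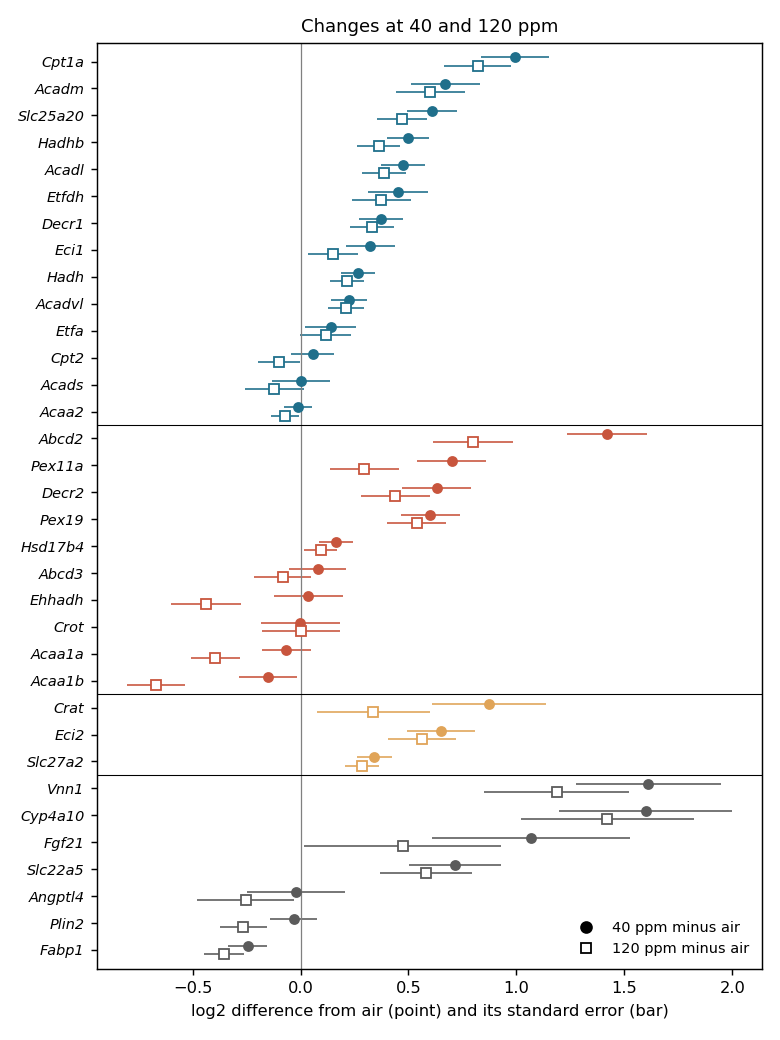
Log2 difference from air of each measured member at 40 ppm (filled circles) and 120 ppm (open squares), with the standard error of the fit as bars. Members are grouped, from the top, as mitochondrial, peroxisomal, both places and other PPARA targets, and the open squares farthest to the left of zero are those of Acaa1b, Ehhadh, Acaa1a and Fabp1.

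Peroxisomal and mitochondrial members were then set side by side in each mouse, as the mean over a class after each gene was centred on its mean of all 35 arrays. The mitochondrial mean was -0.24, -0.03, -0.07, -0.03 and -0.13 in the air mice, 0.28, 0.21, 0.30, 0.28 and 0.24 at 40 ppm, and 0.28, 0.22, 0.22, 0.13 and -0.00 at 120 ppm. The peroxisomal mean was -0.26, 0.12, -0.08, -0.07 and -0.16 in air and 0.26, 0.24, 0.37, 0.25 and 0.15 at 40 ppm. In the 120 ppm mice it was 0.06, -0.09, 0.13, -0.08 and -0.19. At 40 ppm both classes lay above air in every mouse, and at 120 ppm the mitochondrial class did while the peroxisomal class overlapped with air. The margins were narrow. The lowest peroxisomal mean at 40 ppm was 0.150 and the highest in air 0.122. The lowest mitochondrial mean at 120 ppm was -0.005 and the highest in air -0.029. Array medians averaged 3.503 in air, 3.572 at 40 ppm and 3.598 at 120 ppm. Air replicate 2 held both of the highest air means, and its array median was 3.492. The lowest means named were those of 40 ppm replicate 5 and 120 ppm replicate 5, with array medians of 3.605 and 3.570. Centring each array on its median puts these mice below air replicate 2. The peroxisomal class at 40 ppm and the mitochondrial class at 120 ppm then overlap with air.

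The mitochondrial minus peroxisomal difference was between -0.15 and 0.04 in air, with a mean of -0.01, and it was negative in all 5 mice at 20 ppm, at -0.12, -0.03, -0.02, -0.06 and -0.21. At 40 ppm it averaged 0.01. At 120 ppm it was 0.21, 0.31, 0.08, 0.20 and 0.19, above all air mice and averaging 0.20 ± 0.08 (SD, n = 5). Its change from air at 120 ppm was 0.209, and 0.131 with Crat, Eci2 and Slc27a2 counted as peroxisomal. Without Acaa1a and Acaa1b it was 0.0618, so most of the difference rested on those 2 related genes. No test is given for a score over chosen genes.

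**Figure D4:**
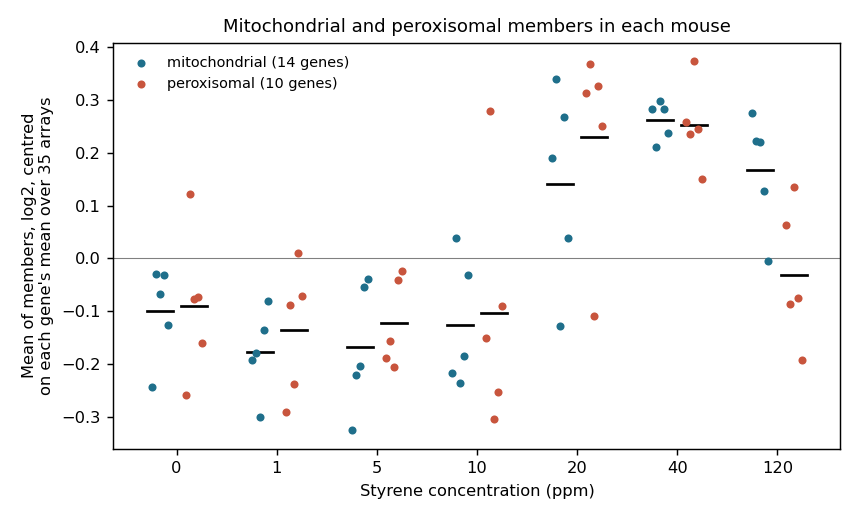
Mean over the 14 mitochondrial and the 10 peroxisomal members in each mouse (points, log2, each gene centred on its mean over 35 arrays) against styrene concentration, with group means as lines. Both class means lie above those of air at 20 and 40 ppm, and at 120 ppm the mitochondrial mean is 0.17 while the peroxisomal mean is -0.03.

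A contrast that used no air mouse was also made, 40 and 120 ppm against 1, 5 and 10 ppm. In it 22 members rose and 2 fell, where 37.8% of all genes passed, 23.9% as higher and 13.9% as lower. Those that fell were Acaa1b (by 0.29 ± 0.09) and Fabp1 (by 0.20 ± 0.06). Acadm, Acadl, Etfdh, Eci2 and Cyp4a10 lay above the lower groups in all 10 mice of the upper 2 groups (1.43% of all genes). Cpt1a rose 1.92-fold in this contrast (limma adjusted p = 2.97e-08) and Vnn1 3.07-fold (adjusted p = 1.14e-06). The F test over the 7 groups passed for 23 members (21.5% of all genes), and the slope on log2(ppm + 1) for 21 rising and 2 falling members (20.1% and 12.9% of all genes).

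Single mice moved the module as a whole. At 20 ppm replicate 3 was the lowest of its group in 25 of 34 members (73.5%, against 18.9% of all genes), and at 10 ppm replicate 2 was the highest of its group in 24 (70.6%, against 28.8%). Air replicate 1 was the lowest in 22 members (64.7%, against 22.4%) and 120 ppm replicate 5 in 23 (67.6%, against 21.7%). Without replicate 3 the count at 20 ppm was 15 of 34 in place of 6, among them Vnn1 (1.86, adjusted p = 0.000523), Crat (1.16, adjusted p = 0.0138) and Cyp4a10 (1.59, adjusted p = 0.0314). Without 20 ppm replicate 2 it was 0, and it was 2 without air replicate 1, 3 without air replicate 3, 1 without 20 ppm replicate 4 and 2 without 20 ppm replicate 5. The count at 20 ppm was also 0 when only its 10 arrays were fitted, so its size is not settled by these data. Calls over all 45037 probe sets moved too, from 466 at 20 ppm to 1267 without both 20 ppm replicate 3 and 10 ppm replicate 2. Such counts for the fits without 1 mouse are not given here.

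Other genes of the same pathways came from lists that held no member. Their counts are read against all genes, of which 1.46% passed at 20 ppm, 15% at 40 ppm and 19.2% at 120 ppm. When only the air and 20 ppm groups were fitted, 0 of all probe sets passed, so calls at 20 ppm depend on the fit. Of 13 other peroxisomal enzymes and carriers 1 rose and 2 fell at 120 ppm (23.1% passed, near the share of all genes). Hacl1, a lyase of the alpha-oxidation route, rose 1.63-fold (limma adjusted p = 0.00255), Nudt7, a hydrolase of CoA in the peroxisome, fell by 1.27 ± 0.23 (adjusted p = 0.000412), and Amacr, a racemase for branched acyl-CoA, fell by 0.30 ± 0.09 (adjusted p = 0.0210). At 40 ppm 2 rose, Hacl1 and Ech1, and 3 fell, Nudt7, Amacr and Slc25a17. Of 10 other peroxisome biogenesis genes 3 rose at 40 ppm (Pex7, Pex16 and Pex26) and 2 at 120 ppm (Pex7 and Pex26), and 0 fell.

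Of 11 other mitochondrial oxidation genes 4 rose at 40 ppm and 3 at 120 ppm, led by Hsd17b10, a hydroxyacyl-CoA dehydrogenase, at 1.65-fold (limma adjusted p = 0.000942 at 120 ppm). Acad12 and Acad11 also rose at 120 ppm, 1.31-fold and 1.24-fold (adjusted p = 0.0336 and 0.0433). Of 5 ketone body genes 1 changed, the dehydrogenase Bdh2, which fell by 0.55, 0.52 and 0.48 at 20, 40 and 120 ppm (adjusted p = 0.0387, 0.0106 and 0.0140). Of 15 genes for PPARA and its partners, 2 rose (Sirt1, 1.85-fold, and Med1, 1.29-fold) and 1 fell (Ppard, by 1.16) at 120 ppm, and Ppara itself did not pass (0.27 ± 0.19 at 40 ppm, adjusted p = 0.373).

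Of 33 further PPARA targets 2 rose at 20 ppm, 4 rose and 2 fell at 40 ppm, and 4 rose and 2 fell at 120 ppm. At both of the last concentrations 18.2% of the list passed, near the share of all genes. Acot3, an acyl-CoA thioesterase of the peroxisome, rose 12.7-fold at 20 ppm, 37.0-fold at 40 ppm and 16.8-fold at 120 ppm (limma adjusted p = 0.00762, 1.16e-05 and 0.000137). Cyp4a31, a relative of Cyp4a10, rose 2.43-, 3.14- and 3.10-fold at the 3 upper concentrations (adjusted p = 0.0307, 0.000528 and 0.000461). The other genes that rose at 120 ppm were Slc27a1, 1.69-fold, and Cd36, 1.70-fold, both for uptake of fatty acids, and those that fell were Fabp4, by 0.51, and Aqp7, by 0.29. Fabp4 and Aqp7 are abundant in adipocytes. The mean of the 6 adipocyte markers, with Adipoq and Lep near the low end of the scale, was 4.40 to 4.53 in air and 4.33 to 4.51 at 120 ppm. Fabp4 is itself among these 6, so their mean is not independent of its fall. Whether adipocyte content differed was not tested.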

How the data were processed

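The deposited values were on a log2 scale, with 1 value per probe set and array. RMA and Partek appear in the submitters' processing notes, which give neither their versions nor what each did. That the logarithm has base 2 was read from the range of the values, 1.74 to 14.2, and every fold change rests on that reading. The labelling reagents were of the Affymetrix 3' IVT type, per the labels' protocols, so probes read a transcript near its 3' end, and the number of arrays limits the precision. No background correction or normalization was added.

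Of 45141 probe sets 104 controls were left out. A platform annotation gave 28898 of the other 45037 a single gene symbol, for 17097 genes, 551 several and 15588 none. All 34 measured members matched the RefSeq gene table by symbol.

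In R 4.3.3, with data.table (version 1.17.8) for reading, limma 3.58.1 fitted a mean for each of the 7 groups to all 35 arrays and all 45037 probe sets (28 residual and 5.41 prior degrees of freedom). Benjamini-Hochberg adjustment was made separately for each comparison over every probe set, and members passed at an adjusted p under 0.05. Shares of all genes use 1 probe set per gene, chosen as for members. SE is from the fit and SD is over mice. The comparisons were each concentration with air, 40 with 20 ppm, 120 with 40 ppm, 40 and 120 with 1, 5 and 10 ppm, an F test and a slope on log2(ppm + 1). The method was tested on simulated data. Figures were drawn with matplotlib.

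The members and lists were chosen with earlier results of these data known. All members are named, and of each other pathway list up to 4 genes with the smallest p among those that passed at 120 ppm. The lists of cell markers did not follow this rule, and the Kupffer cell markers that passed are given as counts. Ppara and Cd163, and the genes Aqp7, Cd36, Ech1, Pex16 and Slc25a17 named beside a count, were added after values were seen. Alternatives were 2 scalings of the arrays, a filter on dim probe sets, a trended prior, array weights, the replicate number as a block, animal order, the mean of a gene's probe sets, fits of only the groups compared, and leaving out each mouse. A fit without 10 ppm replicate 2 and 20 ppm replicate 3 was chosen after seeing the data.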

Additional observations from a re-analysis of the deposited data

Results flagged for a closer look

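Among 238 combinations of member and group, 16 held a mouse far from the other 4 by Dixon's criterion, and chance alone flags about 1 in 20. At 20 ppm replicate 3 was the low mouse for Hadhb (10.6), Acadl (10.5), Slc27a2 (12.7), Vnn1 (7.70) and Cyp4a10 (11.9). At 10 ppm replicate 2 was the high mouse for Acaa2 (12.4), Acadvl (11.5), Crat (7.76) and Fgf21 (5.42). The other 7 were Acadl in 120 ppm replicate 5 (10.7, low), Acaa1a in 5 ppm replicate 3 (12.2, low), Decr2 in air replicate 1 (8.71, low), Pex11a in 5 ppm replicate 2 (8.67, low), Cyp4a10 in 1 ppm replicate 3 (9.30, low), Angptl4 in 20 ppm replicate 4 (9.74, low) and Fabp1 in air replicate 5 (13.003, low).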

How the results depend on the processing

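Among the total counts of members that passed, only that at 20 ppm, 6 members, moved by more than 1.5 times. It was 12 with array weights, 0 when only the groups compared were fitted and 16 without both 10 ppm replicate 2 and 20 ppm replicate 3. In the same order 1037, 0 and 1267 of all probe sets passed, against 466 in the main fit. Leaving out 1 mouse at a time gave 0 to 15 at 20 ppm, 15 to 19 at 40 ppm, 14 to 19 at 120 ppm, 24 to 25 for the upper against the lower concentrations, 21 to 24 for the F test and 21 to 24 for the slope. In the 5 other comparisons the count was 0 under every alternative run. The class difference at 120 ppm was 0.0618 without Acaa1a and Acaa1b, the peroxisomal members that fell there, against 0.209 with them.

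Array centring gave 15 higher and 1 lower at 40 ppm. At 120 ppm it gave 9 higher and 5 lower in place of 14 and 3, a move of both counts by more than 1.5 times. Over all probe sets it moved the share of calls that were higher from 66.6% to 41.2% at 40 ppm and from 67.0% to 34.6% at 120 ppm. With centring Hadh, Hadhb, Decr1, Decr2 and Slc27a2 no longer passed at 120 ppm, and Ehhadh and Plin2 (-0.36, adjusted p = 0.0247) passed as lower. The cause was not tested.

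Of the members that passed, 13 of 18 at 40 ppm, 10 of 17 at 120 ppm and 0 of 6 at 20 ppm passed under all alternatives, and 0 that passed changed direction. At 40 ppm leaving out 1 mouse ended the call of Etfdh (air replicate 1, 2 or 3, or 40 ppm replicate 2; adjusted p = 0.0502 to 0.0556) and Hadh (air replicate 1 or 3; 0.0532 to 0.0670), beside those of Crat and Slc22a5. At 120 ppm it ended those of Decr1 (air replicate 5, 120 ppm replicate 1 or 2; 0.0538 to 0.0594), Decr2 (air replicate 1, 2, 3 or 5, 120 ppm replicate 1, 2 or 3; 0.0520 to 0.169) and Hadh (air replicate 1, 3 or 4, 120 ppm replicate 1, 2, 3 or 4; 0.0613 to 0.142), beside those of Acaa1a and Cyp4a10. Of the members that did not pass, 10 at 20 ppm, 4 at 40 ppm (Eci1, Fabp1, Acadvl and Fgf21) and 5 at 120 ppm (Ehhadh, Slc22a5, Etfdh, Acadvl and Plin2) passed under at least 1 alternative.

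With the replicate number as a block, the counts of members that passed were 9, 18 and 16 at the 3 upper concentrations. The numbers share no animal: correlations of same-numbered arrays, taken on deviations from the group means, ran from -0.39 to 0.37, and 8 of 35 arrays correlated best with an array of their own number, so no pairing was used.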
